A study of Mus musculus with 4 samples.

Results

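Müller glia, the radial glia of the retina, are known for keeping the tissue around neurons stable, and 10 genes that serve this work were followed here: Glul, Slc1a3, Kcnj10, Aqp4, Car2, Vim, Dbi, Gpr37, Ckb and Apoe. They were chosen by name for glutamate, potassium, water, acid-base and lipid handling and for glial structure, with earlier results of these data known. All 10 were found among the 21831 genes analyzed. Müller cells take up the glutamate that neurons release and turn it into glutamine, carry potassium and water away from active synapses, and convert carbon dioxide to bicarbonate. They also make lipoproteins and span the retina with a vimentin-containing cytoskeleton. In the mouse they are the last cell type to be born from retinal progenitor cells, in the first postnatal week, and they keep many progenitor genes on.

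RNA-seq was done on retinal cells of mice, labelled as strain FVB/N, at postnatal day 1 (P1) and postnatal day 4 (P4). The mice carried a transgene in which the Hes1 promoter drives destabilized EGFP, and a cell sorter separated EGFP-positive cells (pHes1_EPCs) from EGFP-negative cells (pHes1_ENCs). Hes1 encodes a repressor downstream of Notch that is present in retinal progenitors and in Müller glia, so the pHes1_EPC fraction is defined by promoter activity and not by a mature glial marker. Both fractions came from animals with the transgene and without other treatment, and the number of animals behind a library is not given in the sources used here. There was 1 library for each fraction at each age, 4 in all. With 1 library per group no difference can be set against the spread between animals or sorts, no test was run, and every difference below describes these 4 libraries.

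The level of a gene is its FPKM, a fragment count divided by the length of the transcript in kilobases and by the depth of the library, so that levels can be compared between genes. The error given with it is the 95% interval that Cufflinks wrote, which covers counting and assignment of reads within 1 library only. A difference is log2(FPKM + 1) in one library minus the same in the other, which understates the change of genes with low FPKM, and a gene was counted as more than 2-fold higher when it exceeded 1. Read from the interval widths of the members, taken as 2 standard deviations on each side, the depth implied by the median member was 12900000 to 14200000 reads per library. The intervals reached 0.736% to either side of their midpoint for Ckb in P4 pHes1_EPCs and 80% for Aqp4 in P4 pHes1_ENCs. The printed FPKM lay above its own interval for 5 members in each pHes1_ENC library and 7 in each pHes1_EPC library, with interval midpoints at 84.4% (Apoe) to 101% (Dbi) of the FPKM. This offset stayed within 3.84 percentage points between the libraries for each gene, so ratios between libraries are given with ranges taken from the interval bounds.

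Hes1 itself, which checks the sort, stood at 16.6 FPKM in P1 pHes1_ENCs, 105 in P1 pHes1_EPCs, 3.59 in P4 pHes1_ENCs and 93.5 in P4 pHes1_EPCs. Of 10 other markers of mature Müller glia, 5 exceeded 2-fold in favor of pHes1_EPCs at P1 and 8 did at P4. Rlbp1, which encodes the retinoid carrier CRALBP, stood at 13.1, 80.4, 13.1 and 384 FPKM in the same library order, and Abca8a reached only 0.0853. At P1 Mlc1 and Ptgds were lower in pHes1_EPCs (0.359 and 2.40 FPKM) than in pHes1_ENCs (0.530 and 3.38), with overlapping intervals. At P4 Ptgds exceeded 2-fold in favor of pHes1_EPCs and Mlc1 did not. All 8 markers of cycling progenitors also favored pHes1_EPCs by more than 2-fold at both ages, and their summed FPKM was 512, 2667, 149 and 1148. The positive fraction thus carried both glial and progenitor transcripts, and in RNA from a mixed population more cells of a type and more RNA per cell cannot be told apart. Rod markers were the opposite, with all 5 more than 2-fold lower in pHes1_EPCs at both ages. Their summed FPKM was 486, 35.4, 3673 and 744 in the same library order, so it was higher at P4 in both fractions. The part of progenitor and rod RNA in the members' differences, and in their changes from P1 to P4 in either fraction, was not tested.

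At P1, 8 of the 10 members exceeded their pHes1_ENC level more than 2-fold in pHes1_EPCs, as 6.1% of all genes did, and at P4, 9 of 10 did, as 9.85% of all genes did. No member was higher in pHes1_ENCs at either age. The median difference over the members was 1.37 at P1 and 3.002 at P4, and over all genes it was 0 at both ages. Among the 8403 genes that reached 10 FPKM in any library, which are more like the members in level, the median was 0.04 at P1 and 0.20 at P4, and 10.9% and 17.4% of them were more than 2-fold higher. The 10 members together made up 0.542% of the summed FPKM in P1 pHes1_ENCs, 1.24% in P1 pHes1_EPCs, 0.527% in P4 pHes1_ENCs and 1.93% in P4 pHes1_EPCs. Ckb alone was 47.4% to 75.3% of the members' sum.

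**Figure D1:**
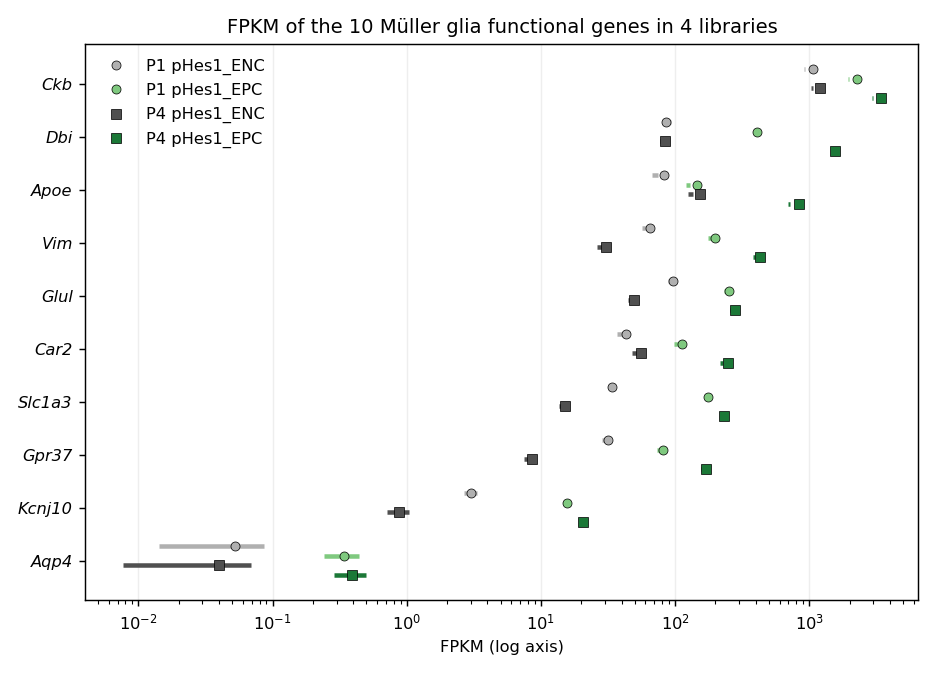
FPKM of the 10 members (log axis) in the 4 libraries, 1 library for each point, with horizontal bars for the 95% intervals that Cufflinks wrote. Green points (pHes1_EPC) lie to the right of grey points (pHes1_ENC) of the same age for every member, and levels run from 0.0402 FPKM for Aqp4 to 3399 for Ckb.

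The sequence upstream of the members was read from the RefSeq promoter table (GRCm38.p6), which matched 8 of the 10 members by symbol, Glul, Slc1a3, Kcnj10, Vim, Dbi, Gpr37, Ckb and Apoe. The 250 bases before each start were found in NCBI37/mm9 by exact match, at 1 place each. Those of Glul, at chr1:155746809-155747058 on the plus strand, and of Slc1a3, at chr15:8660808-8661057 on the minus strand, are shown because in these genes of glutamate handling the growth of the difference from P1 to P4 was mainly a lower level in pHes1_ENCs. That of Apoe, at chr7:20284538-20284787 on the minus strand, is shown because this gene had the largest increase in pHes1_EPCs among the members. For genes with several RefSeq starts, such as Apoe with 3, the first one listed was used. Capitals mark each N box (CACNAG), letters that proteins of the Hes family are known to bind, on either strand, and the sequences run 5′ to 3′ on the strand of the gene.
Glul: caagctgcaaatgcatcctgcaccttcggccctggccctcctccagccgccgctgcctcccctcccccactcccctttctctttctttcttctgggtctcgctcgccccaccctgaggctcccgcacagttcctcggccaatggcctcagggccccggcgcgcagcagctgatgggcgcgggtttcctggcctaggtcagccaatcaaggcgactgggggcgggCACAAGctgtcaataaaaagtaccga
Slc1a3: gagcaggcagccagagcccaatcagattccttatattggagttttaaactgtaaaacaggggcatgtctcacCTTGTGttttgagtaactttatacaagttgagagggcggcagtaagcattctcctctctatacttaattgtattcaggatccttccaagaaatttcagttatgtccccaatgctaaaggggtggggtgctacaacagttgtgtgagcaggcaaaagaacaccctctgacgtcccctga
Apoe: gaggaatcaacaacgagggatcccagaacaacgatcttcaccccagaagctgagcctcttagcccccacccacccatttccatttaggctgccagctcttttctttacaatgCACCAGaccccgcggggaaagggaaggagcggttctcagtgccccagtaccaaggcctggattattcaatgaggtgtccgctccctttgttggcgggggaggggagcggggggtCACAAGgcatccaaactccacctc

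An N box was present in 5 of the 8 windows (Glul, Slc1a3, Vim, Gpr37 and Apoe), against 36.7% of 27025 RefSeq promoters cut to the same length. The class C letters CACGNG, which Hes proteins are also known to bind, were in 1 of the 8, against 23.7%. The Notch effector RBPJ is known to bind GTGGGAA, which was in none of the 8 windows and in 5.41% of all. Of letters known from promoter elements, CCAAT was in 5 (34.5% of all), the GC box GGGCGG in 4 (32.9%) and TATAAA in 3 (13%), all searched on both strands. TATAAA lay on the strand of the gene in Vim and Ckb and only on the other strand in Slc1a3. The SOX-type letters CATTGT were in 1, Apoe (11%), and the NFI-type letters TTGGCA in none (12.5%). The window of Slc1a3 was 44.8% G and C and the other 7 were 57.2% to 64.8%, where the median promoter was 52%. These matches describe the letters in the windows only.

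Glul encodes glutamine synthetase, which joins ammonia to glutamate and is found in the retina in Müller cells. It lies on the plus strand of chromosome 1, from 155747075 to 155756844 in NCBI37/mm9, with 7 exons in the longest protein-coding transcript. Its FPKM was 96.9 in P1 pHes1_ENCs, 253 in P1 pHes1_EPCs, 49.3 in P4 pHes1_ENCs and 278 in P4 pHes1_EPCs. Both pHes1_EPC libraries were above both pHes1_ENC libraries, by 2.62 times at P1 (2.45 to 2.75 from the intervals) and 5.64 times at P4 (5.18 to 5.98). From P1 to P4 the difference went from 1.38 to 2.47, and 87.8% of this growth on the log2 scale was the lower level in pHes1_ENCs (-0.96, and -1.16 to -1.01 under the scalings named next). The change in pHes1_EPCs was 0.13, and it was negative, from -0.44 to -0.06, when the libraries were rescaled to the same total, by median of ratios or by quantiles. Of the 36-base stretches of the Glul transcript, 23.2% also occur elsewhere in the genome, 459 of them at the pseudogene Glns-ps1, so its FPKM depends on how such reads were shared out. An exon of 5830403L16Rik overlaps it on the other strand, and the library protocol does not keep strand, but that gene was listed at no more than 0.0271 FPKM.

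Slc1a3 encodes GLAST, the sodium-coupled transporter that brings glutamate into Müller cells. The gene lies on the minus strand of chromosome 15, from 8584124 to 8660807, with 10 exons. Its FPKM was 34.0, 177, 15.1 and 231 in P1 pHes1_ENCs, P1 pHes1_EPCs, P4 pHes1_ENCs and P4 pHes1_EPCs, the order used from here on. The fractions did not overlap, and the ratio was 5.19 at P1 (4.84 to 5.50) and 15.3 at P4 (13.8 to 16.4). Here too the level in pHes1_ENCs fell more than 2-fold (-1.12), which was 74.3% of the growth of the difference from 2.34 to 3.85. The change in pHes1_EPCs was 0.39, and -0.07 after quantile normalization. None of its 36-base stretches occurs elsewhere.

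Other genes of glutamate and glutamine handling did not share this direction. Of 12 listed, 1 was more than 2-fold higher in pHes1_EPCs at P4 and 3 were more than 2-fold lower, with the same counts at P1. The gene that was higher is Slc38a3, which encodes the glutamine transporter SNAT3, with 23.4, 75.9, 30.2 and 96.6 FPKM. The 3 that were lower are the transporter genes Slc1a1, Slc1a2 and Slc1a7, known from neurons and photoreceptors in the retina. Slc1a2 stood at 33.6, 1.66, 56.0 and 10.2 FPKM, so that in pHes1_ENCs it was above Slc1a3 at P4 and in pHes1_EPCs far below it at both ages. Glutamate transporter RNA was thus split between the fractions by family member.

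Kcnj10 encodes the inward rectifier Kir4.1, through which Müller cells take up and release potassium. Its locus is on the plus strand of chromosome 1, from 174271341 to 174304216, with 2 exons. Its FPKM was 3.01, 15.6, 0.879 and 20.7. At P4 this was the largest ratio among the members, 23.6 (18.6 to 29.9), against 5.18 (4.32 to 6.04) at P1. Its P4 range overlapped those of Gpr37 (17.0 to 21.8), Dbi (17.0 to 20.8) and Aqp4 (4.14 to 64.7). Because the Kcnj10 level in P4 pHes1_ENCs was below 1, its difference of 3.53 at P4 is 4.41 with a pseudocount of 0.1. Of the growth of the difference, 73.8% was the fall in pHes1_ENCs (-1.10), which was -0.76 after quantile normalization and thus short of 2-fold. Kcnj16, which encodes the Kir5.1 subunit that pairs with Kir4.1, was listed at no more than 0.00472 FPKM.

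Aqp4, the water channel of glial endfeet, was the exception among the members. It lies on the minus strand of chromosome 18, from 15547903 to 15562193. Its FPKM was 0.0522, 0.344, 0.0402 and 0.395, below every other member in every library. The intervals of the fractions did not overlap, and the ratio was 6.59 at P1 (2.79 to 30.9) and 9.80 at P4 (4.14 to 64.7). The interval widths correspond to about 7.84, 45.4, 6.25 and 55.2 reads, so the direction rests on few reads in pHes1_ENCs, and a change from P1 to P4 was not detectable at this depth in either fraction. Other water channel genes of the list were also low, with 2.99 FPKM as the highest value.

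Of 11 listed genes of potassium and water channels and potassium transport, 2 favored pHes1_EPCs by more than 2-fold at P4 and 1 favored pHes1_ENCs. Kcnk1, which encodes the two-pore potassium channel TWIK1, stood at 9.93, 34.9, 2.96 and 26.8 FPKM, with more RNA than Kcnj10 in each library. Atp1b2, which encodes a sodium pump beta subunit that photoreceptors also use, was the one that was lower, at 216, 59.1, 674 and 139. Among 8 genes of the dystrophin complex, which anchors Kir4.1 and the water channel at endfeet, 1 was more than 2-fold higher at P4 and 2 lower. Sntb1, encoding beta-1-syntrophin, stood at 1.73, 6.59, 0.725 and 8.55 FPKM, and Dmd, whose retinal product dystrophin Dp71 is glial while longer products are in photoreceptors, at 9.08, 3.43, 22.7 and 6.19. Sntb2, another syntrophin gene, was the other that was lower, with 0.502 in P4 pHes1_EPCs against 3.59 in P4 pHes1_ENCs. The gene-level FPKM does not separate the products of Dmd.

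Car2 encodes carbonic anhydrase II, the cytosolic enzyme that turns carbon dioxide into bicarbonate. The gene lies on the plus strand of chromosome 3, from 14886426 to 14900770, with 7 exons. Its FPKM was 43.2, 113, 55.5 and 248. The fractions did not overlap, and the ratio went from 2.61 at P1 (2.34 to 2.86) to 4.46 at P4 (4.08 to 4.79). Unlike Glul and Slc1a3, Car2 was higher at P4 in both fractions, by 0.35 in pHes1_ENCs and by 1.13 in pHes1_EPCs. The latter is between 0.68 and 0.93 under the other scalings, short of 2-fold. Red blood cells are known to hold carbonic anhydrase II too, and haemoglobin RNA was nearly confined to pHes1_ENCs among these 4 libraries, with Hba-a1 at 81.9, 0.151, 205 and 3.61 FPKM. The part of red cells in the pHes1_ENC level of Car2 was not tested, and in pHes1_EPCs the 6 erythroid markers together came to 0.615 and 6.82 FPKM, with Slc4a1 listed at 0.

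Among 12 other carbonic anhydrases and pH transporters, the pHes1_EPC level was more than 2-fold higher for 1 at P1 and for 4 at P4. Car14, which encodes the membrane-bound carbonic anhydrase XIV of Müller cells and pigment epithelium, went from 4.11, 6.63 and 2.65 FPKM in the first 3 libraries to 66.3 in P4 pHes1_EPCs. Its difference was 0.58 at P1 and 4.20 at P4, the latter close to that of Dbi. Car3, Car12 and Slc4a4 were the other 3 at P4, with differences of 1.38, 1.54 and 1.15 and no more than 4.57 FPKM. Slc4a4 encodes the sodium bicarbonate cotransporter NBCe1 and was the one that was higher at P1. Slc4a7, encoding another bicarbonate transporter, was the 1 gene more than 2-fold lower at P4, at 25.3, 15.9, 42.8 and 16.9 FPKM. Pigment epithelium markers summed to 5.97, 1.85, 12.01 and 29.3 FPKM, with Dct at 15.0 in P4 pHes1_EPCs and Rpe65 at 0.422, and their part in the Car14 level was not tested.

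Dbi encodes the acyl-CoA binding protein, also known as diazepam binding inhibitor, which carries fatty acyl-CoA and is the source of glial neuropeptides. It lies on the minus strand of chromosome 1, from 122009857 to 122017673, with 4 exons. Its FPKM was 86.1, 407, 83.9 and 1557. The values in pHes1_ENCs were alike at both ages, with overlapping intervals, while pHes1_EPCs were 4.72 times higher at P1 (4.22 to 5.35) and 18.6 times at P4 (17.0 to 20.8). Its difference at P4, 4.20, was the largest of the 10 members with this pseudocount, but with a pseudocount of 0.1 it was 4.21, below Kcnj10 (4.41) and Gpr37 (4.29), as it was with none. At a pseudocount of 1 it exceeded that of 99.9% of all genes. Of the growth, 98.1% came from the more than 2-fold rise in pHes1_EPCs (1.93). Under the other scalings this rise was 1.47 to 1.74. Of its 36-base stretches 9.32% also occur elsewhere, all at 1 place.

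The other genes of acyl-CoA and fatty acid binding split, with 2 of 8 more than 2-fold higher in pHes1_EPCs at P4 and 2 lower. Tspo, the mitochondrial protein to which the product of Dbi is known to bind, stood at 0.779, 4.02, 1.08 and 5.83 FPKM. Acbd6, another acyl-CoA binding gene, stood at 23.7, 24.0, 14.8 and 33.6. Fabp7, a fatty acid binding protein of brain radial glia, went the other way, at 573, 20.4, 760 and 235, and so did Acbd7, at 0.656, 0.344, 7.44 and 1.39. In pHes1_EPCs Fabp7 was nevertheless 11.5 times higher at P4 than at P1.

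Apoe encodes apolipoprotein E, the main lipoprotein component that retinal glia secrete. It lies on the minus strand of chromosome 7, from 20281593 to 20284515, with 4 exons. Its FPKM was 83.0, 146, 152 and 838. At P1 the ratio was 1.76 (1.60 to 1.93), and the P1 pHes1_EPC level was slightly below that of P4 pHes1_ENCs. The intervals of these 2 libraries overlap. At P4 the ratio was 5.51 (5.14 to 5.79). Apoe thus joined the members that were more than 2-fold higher only at P4, with differences of 0.81 and 2.45. It had the largest change in pHes1_EPCs of the 10 members, 2.51, and it was also higher at P4 in pHes1_ENCs, by 0.87. Microglia are known to make apolipoprotein E too, and their 6 markers summed to 1.93, 8.51, 6.20 and 8.18 FPKM, with none above 3.72. The part of microglia in the Apoe level was not tested.

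Of 12 genes of lipoprotein handling, 2 favored pHes1_EPCs by more than 2-fold at P4 and 3 favored pHes1_ENCs. The 2 that were higher, Apod and Pltp, encode apolipoprotein D and the phospholipid transfer protein and reached 2.97 FPKM at most. The receptor genes Lrp8 and Vldlr and the cholesterol exporter gene Abcg1 were the 3 that were lower. Clu, encoding the glial apolipoprotein clusterin, stood at 3.33, 0.997, 12.8 and 17.2 FPKM, higher at P4 in both fractions as Apoe was.

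Vim encodes vimentin, the intermediate filament protein of Müller cells and of progenitors. Its locus is on the plus strand of chromosome 2, from 13495938 to 13504453, with 9 exons. Its FPKM was 65.2, 199.9, 30.7 and 430. The fractions did not overlap, with a ratio of 3.07 at P1 (2.80 to 3.28) and 14.0 at P4 (12.5 to 15.1). Without rescaling, the growth of the difference from 1.60 to 3.77 was split nearly evenly between a fall in pHes1_ENCs (-1.06) and a rise in pHes1_EPCs (1.10). The rise was 0.59 to 0.91 under the other scalings, short of 2-fold. The fall was -1.27 to -1.11 under them and was the larger part in each.

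Of 9 other intermediate filament genes, 2 favored pHes1_EPCs by more than 2-fold at P4 and 2 favored pHes1_ENCs. Nes, which encodes nestin of progenitors, stood at 10.8, 38.8, 2.87 and 26.9 FPKM, and Synm, encoding synemin, at 2.35, 11.5, 0.907 and 3.96. Both were lower at P4 than at P1 in pHes1_EPCs, where Vim was higher. Ina and Nefh, neuronal filament genes, were the 2 that were lower, at 1.52 and 0.386 in P4 pHes1_EPCs against 8.42 and 2.94 in P4 pHes1_ENCs. Gfap, the filament of astrocytes and of reactive Müller glia, was at 0.318, 0.335, 1.21 and 0.860. The 4 astrocyte markers, Gfap among them, summed to 3.72, 4.73, 7.37 and 14.1 FPKM, of which Pdgfra was 11.1 in P4 pHes1_EPCs.

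Gpr37 encodes an orphan receptor of glia related to the endothelin receptors. The gene lies on the minus strand of chromosome 6, from 25618523 to 25639980, with 2 exons. Its FPKM was 31.4, 80.6, 8.53 and 169. At P1 the ratio was 2.57 (2.34 to 2.79) and at P4 it was 19.8 (17.0 to 21.8), the largest growth of the difference among the members, from 1.33 to 4.15. Of this growth 62.6% came from the fall in pHes1_ENCs (-1.77), the largest fall of any member. The remainder came from the rise in pHes1_EPCs (1.06), which was 0.62 to 0.86 under the other scalings. Psap, encoding prosaposin, which has been described as a ligand of this receptor, stood at 108, 161, 131 and 222 FPKM, differences of 0.58 and 0.75. The close relative Gpr37l1, a gene of astrocytes and Bergmann glia, was listed at 0 in 3 libraries and at 0.113 in P4 pHes1_EPCs.

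Ckb encodes the brain-type creatine kinase, which regenerates ATP from phosphocreatine. Its locus is on the minus strand of chromosome 12, from 112907566 to 112910549, with 8 exons. Its FPKM was 1060.0, 2249, 1205 and 3399, the highest of the members in every library. The ratio was the smallest of the 10 at P4, 2.82 (2.75 to 2.87), and 2.12 (2.07 to 2.17) at P1. The difference of 1.08 at P1 is just past the threshold and is 0.997 after rescaling to the same total and 0.80 after quantile normalization, which does not pass it. At P4 it was 1.49, and 0.69 after quantile normalization. Of its 36-base stretches 47.2% also occur elsewhere, 540 of them at the pseudogene Gm12892, so its FPKM is the least certain of the members in this respect. None of 6 other genes of the creatine pathway was more than 2-fold higher in pHes1_EPCs at P4, and 1 was lower. That gene, Ckmt1, encoding mitochondrial creatine kinase, stood at 6.86, 1.18, 38.6 and 9.39.

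**Figure D2:**
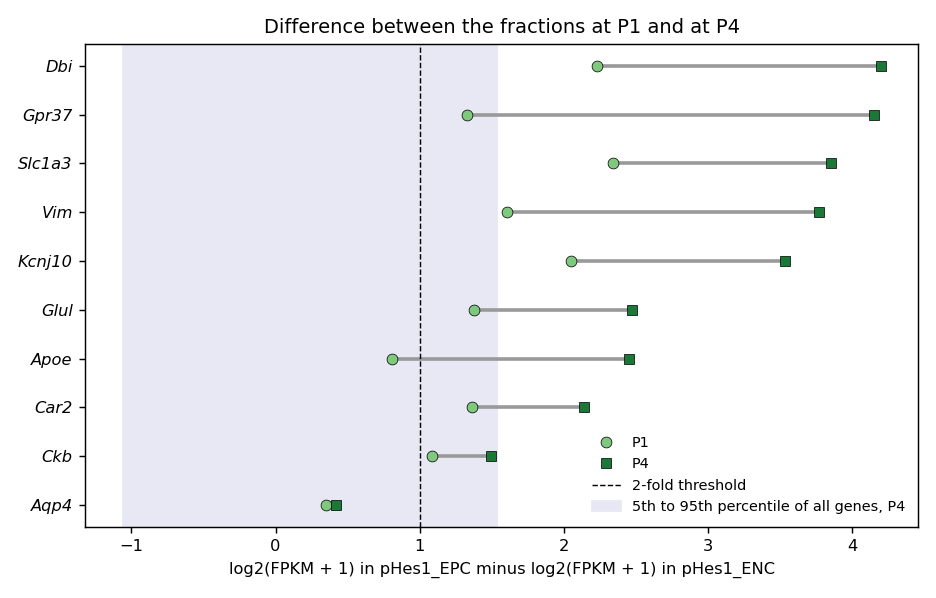
Difference in log2(FPKM + 1) between pHes1_EPCs and pHes1_ENCs for each member at P1 (circles) and P4 (squares), with the 2-fold threshold (dashed) and the range from the 5th to the 95th percentile of all genes at P4 (shaded). Every square lies to the right of its circle, and 8 members at P4 lie past the shaded range.

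The difference between the fractions was larger at P4 than at P1 for all 10 members, which was so for 51.0% of all genes and 64.6% of those that reached 10 FPKM. The median growth was 1.497 over the members. After rescaling to the same total it was larger for 9 members and for 43.3% of all genes. After quantile normalization it was larger for 8 members and for 38.9% of all genes. The members reached it in different ways. In pHes1_ENCs 4 members fell more than 2-fold from P1 to P4 (Slc1a3, Kcnj10, Vim and Gpr37), where 5.94% of all genes did (11.5% with a pseudocount of 0.1 and 18.4% with none). In pHes1_EPCs 5 members rose more than 2-fold (Car2, Vim, Dbi, Gpr37 and Apoe), where 4.17% of all genes did (7.85% and 13.8%), and both counts of members were the same with these pseudocounts. Only Dbi and Apoe rose more than 2-fold under each of the other 3 scalings, where 2.13% to 2.72% of all genes did. The FPKM sum over the genes analyzed was 372004 in P4 pHes1_EPCs and 277428 to 303865 in the other libraries. The scalings shifted the median change of genes that reached 10 FPKM in any library, in pHes1_EPCs, from 0.24 to between -0.07 and 0.06, and their median difference at P4 from 0.20 to between -0.08 and 0.03. The 2 age comparisons and the 2 fraction comparisons share libraries and are not independent of each other.

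**Figure D3:**
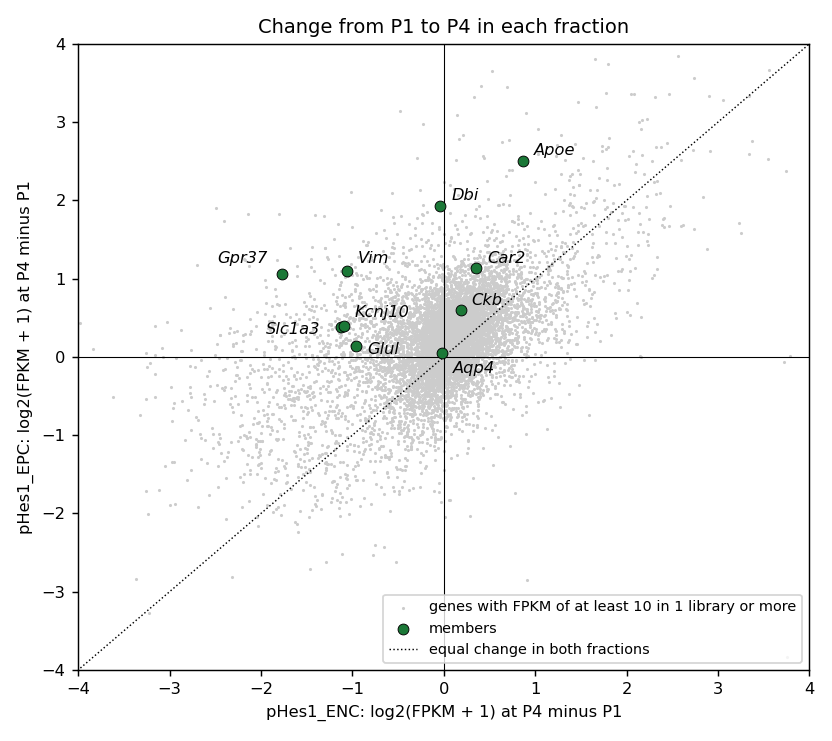
Change in log2(FPKM + 1) from P1 to P4 in pHes1_ENCs (horizontal axis) and in pHes1_EPCs (vertical axis) for the members (green) and for the 8403 genes that reached 10 FPKM in any library (grey, those with a change beyond 4 in size not drawn). All members lie above the dotted line of equal change, Slc1a3, Kcnj10, Glul, Vim and Gpr37 well to the left of 0 and Car2, Ckb and Apoe to the right of it.

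Levels set against another gene of the same library do not depend on a factor applied to a whole library, as the same-total and median-of-ratios scalings are, while quantile normalization can move them. Relative to Glul, the FPKM of Dbi in pHes1_EPCs was 1.61 at P1 and 5.60 at P4, that of Apoe 0.578 and 3.01, that of Vim 0.789 and 1.55, and that of Car2 0.445 and 0.891. Slc1a3 relative to Glul was 0.697 and 0.832 in pHes1_EPCs, and Kcnj10 was 0.0616 and 0.0746. Gpr37 was 0.318 and 0.606, Ckb 8.87 and 12.2, and Aqp4 0.00136 and 0.00142. In pHes1_EPCs Dbi, Apoe, Vim, Car2, Gpr37 and Ckb thus gained on Glul between the ages more than Slc1a3 and Kcnj10 did. In pHes1_ENCs the FPKM of Apoe relative to Glul was 0.857 at P1 and 3.08 at P4, so that at P4 this ratio was alike in both fractions.

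The order of the members by level changed accordingly. In P1 pHes1_EPCs it was Ckb, Dbi, Glul, Vim, Slc1a3, Apoe, Car2, Gpr37, Kcnj10 and Aqp4, with no overlap between the intervals of neighbours. In P4 pHes1_EPCs it was Ckb, Dbi, Apoe, Vim, Glul, Car2, Slc1a3, Gpr37, Kcnj10 and Aqp4, where the intervals of Car2 and Slc1a3 overlapped. In pHes1_ENCs Glul was second at P1, with an interval overlapping that of Dbi, and at position 5 at P4, with one overlapping that of Car2. The top position of Ckb and the last positions of Kcnj10 and Aqp4 were the same in all 4 libraries.

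Of the 80 genes of 9 lists of related function, 14 favored pHes1_EPCs by more than 2-fold at P4 and 15 favored pHes1_ENCs, against 9 and 0 of the members. At P1 the counts were 11 and 15. Of the 8403 genes that reached 10 FPKM in any library, 17.4% favored pHes1_EPCs by more than 2-fold at P4 and 9.94% favored pHes1_ENCs. At P1 these shares were 10.9% and 11.1%. The 80 related genes were not held to that level, and of all genes 6.1% at P1 and 9.85% at P4 favored pHes1_EPCs. The median difference over the 80 related genes was -0.01 at P1 and 0.07 at P4. Members and related lists were both chosen with earlier results of these data known, which limits this comparison.

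**Figure D4:**
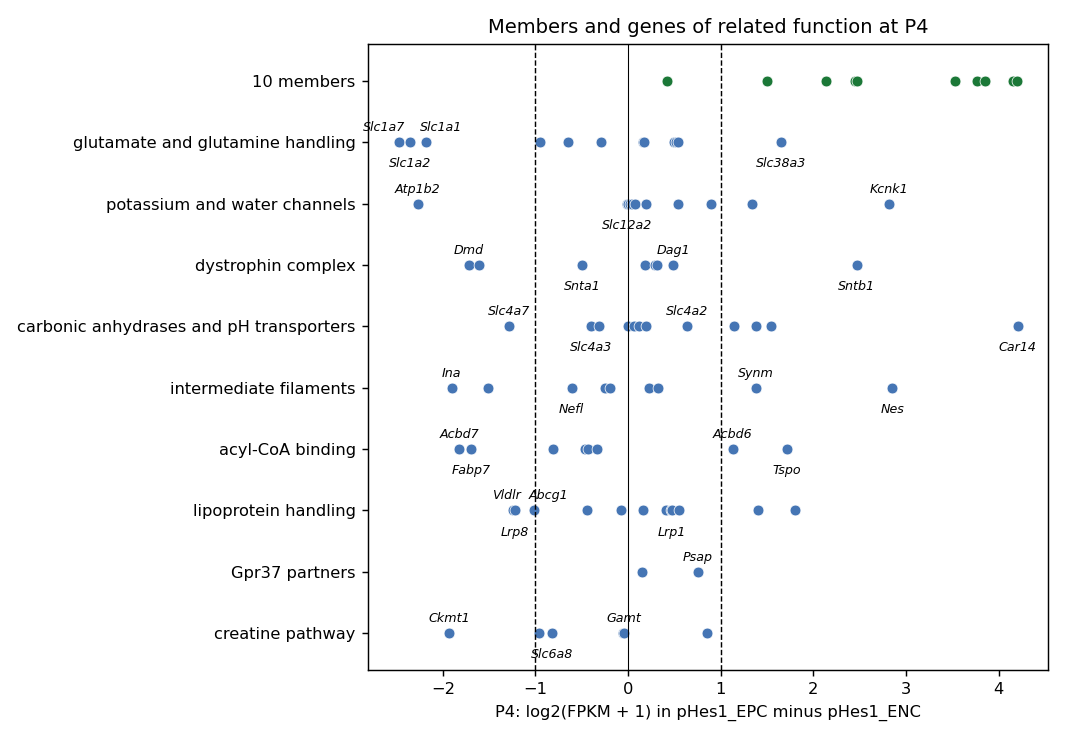
Difference in log2(FPKM + 1) between pHes1_EPCs and pHes1_ENCs at P4 for the members (green) and for genes of 9 lists of related function (blue, 1 point for each gene), with dashed lines at the 2-fold threshold. The members lie between 0.42 and 4.20, while each of the lists except the partners of Gpr37 spans both sides of 0.

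The 5 genes whose values over the 4 libraries were most like the median member, by Euclidean distance between centred log2(FPKM + 1) values among 8394 genes that reached 10 FPKM, were Acsl3, Sox2ot, Crip2, Egfl7 and Gstk1. Their distances were 0.232 to 0.279, and those of the members themselves 0.417 (Vim) to 2.14 (Aqp4). Acsl3, which encodes a ligase that makes acyl-CoA from fatty acids, stood at 56.9, 208, 37.6 and 337 FPKM. Sox2ot, a noncoding RNA whose gene encloses that of the progenitor and glial factor Sox2, stood at 5.44, 18.2, 2.30 and 35.5. Crip2, Egfl7 and Gstk1 reached 84.8, 15.4 and 15.2 in P4 pHes1_EPCs, their highest library.

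**Figure D5:**
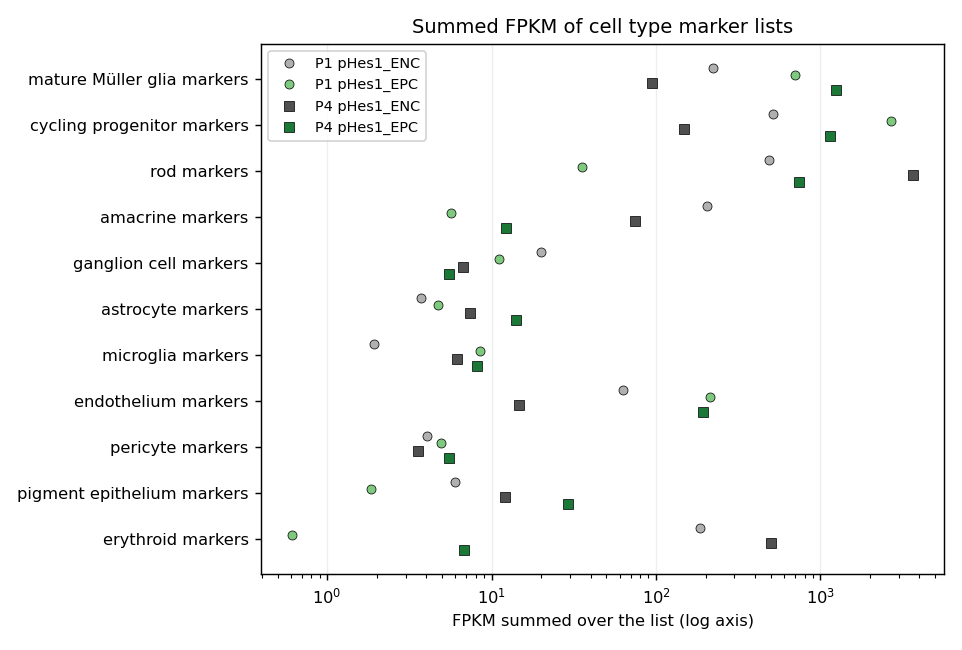
FPKM summed over lists of cell type markers (log axis) in the 4 libraries, 1 library for each point. Mature Müller glia and cycling progenitor sums are higher in pHes1_EPCs (green) than in pHes1_ENCs (grey) at both ages, rod, amacrine and erythroid sums are lower, and the astrocyte, microglia and pericyte sums stay at 14.1 FPKM or below.

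Markers of other cells that could carry the members' RNA were also read in the sorted fractions. Of the endothelial markers, Pecam1, Cdh5 and Tie1 were at or below 0.142 FPKM in all 4 libraries, with Cdh5 listed at 0 in both P4 libraries, and Cldn5 stood at 16.3, 3.49, 2.59 and 4.06. Kdr, which retinal progenitors are also known to express, stood at 46.9, 209, 12.01 and 189. The 4 pericyte markers summed to 4.04, 4.93, 3.56 and 5.52 FPKM. Amacrine markers summed to 204, 5.64, 74.2 and 12.2 and ganglion cell markers to 20.1, 11.2, 6.73 and 5.51, so both sums were lower in pHes1_EPCs at both ages. For ganglion cells none of the 5 markers was more than 2-fold lower at P4, and Rbpms was at 3.02, 3.25, 0.508 and 1.29.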

How the data were processed

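RNA of sorted pHes1_EPCs and pHes1_ENCs at P1 and P4 was measured in 4 libraries of single-end reads of 36 bases, from a protocol that does not keep strand. Per the submitters' processing notes, bcl2fastq 1.8.4, TopHat2 2.0.8b and Cufflinks 2.1.1 were used with build mm9, and TopHat allowed 50 positions per read. The authors deposited gene FPKM with a 95% interval and a status, used here without rescaling. Reads and counts were not used here. Of 23021 gene lines (22558 symbols), 793 lines of small RNAs were left out by symbol, only the line of highest FPKM was used for each symbol, and 21831 genes remained. A pseudocount of 1 was added, a log2 difference above 1 was counted as more than 2-fold, and no test was run. Alternatives were pseudocounts of 0.1 and none, the same total, median-of-ratios and quantile scaling, summed lines, a minimum FPKM of 1, small RNAs kept, status OK only, and intervals that do not overlap. Stretches of 36 bases of the longest annotated protein-coding transcript were searched in NCBI37/mm9. The members and lists were chosen with earlier results of these data known. All members are named, up to 4 genes per related list with the largest P4 difference at an FPKM of at least 5, 10 named relatives, and the 5 nearest profiles. Others in counts of 5 or fewer were named after their values were seen. Python 3.11.15, numpy 2.4.6, pandas 2.3.3 and matplotlib 3.10.9 were used. Some items are not reported here.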

Additional observations from a re-analysis of the deposited data

Results flagged for a closer look

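For 7 of the 10 members the change from P1 to P4 had one sign in pHes1_ENCs and the opposite sign in pHes1_EPCs, which is what singled them out. Each change comes from 1 library per age, and the difference between the fractions' changes was not tested. The share of all genes with opposite signs in the fractions was not counted, so this count of members has no background beside it. Changes in log2(FPKM + 1) were -1.77 in pHes1_ENCs and 1.06 in pHes1_EPCs for Gpr37, and -1.06 and 1.10 for Vim. They were -1.12 and 0.39 for Slc1a3, -1.10 and 0.39 for Kcnj10, and -0.96 and 0.13 for Glul. For Dbi they were -0.037 and 1.93, where the intervals of the pHes1_ENC libraries overlapped. For Aqp4 they were -0.016 and 0.053, where the intervals of both pairs of libraries overlapped, so no direction can be read. The pHes1_EPC signs of Glul, Slc1a3 and Aqp4 and the pHes1_ENC sign of Aqp4 turned under at least 1 other scaling.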

How the results depend on the processing

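Under the alternatives that kept the 2-fold rule, 7 to 9 members were higher in pHes1_EPCs at P1 and 8 to 10 at P4. By intervals that do not overlap, which sets no 2-fold rule, all 10 were higher at each age. No share of all genes was counted for that. The median difference over the members at P4 (3.002) was 3.15 with a pseudocount of 0.1, 3.55 with none, 2.73 at the same total, 2.84 with median-of-ratios scaling and 2.64 with quantile normalization. The median change in pHes1_EPCs (0.83) was 0.49, 0.63 and 0.41 with these 3 scalings, and that in pHes1_ENCs (-0.50) was -0.67 without a pseudocount. The 5 members that rose more than 2-fold in pHes1_EPCs became 2 under each of the 3 scalings. The share of all genes more than 2-fold higher at P1 was 9.42% (pseudocount 0.1), 13.8% (none) and 10.6% (FPKM of at least 1). At P4 this share was 14.7%, 20.1% and 17.4% in the same order. Under the 3 scalings it was 5.63% to 6.84% at P1 and 7.03% to 7.99% at P4. Of 240 alternative values of single members, 6 turned sign, all of them under the 3 scalings. The other alternatives could not turn a sign, because a pseudocount keeps it and each member had only 1 line to sum. The change of Glul in pHes1_EPCs became -0.20 (same total), -0.064 (median of ratios) and -0.44 (quantile), that of Slc1a3 -0.067 (quantile) and that of Aqp4 -0.035 (same total), and the change of Aqp4 in pHes1_ENCs became 0.014 (quantile). Quantile normalization gives libraries the same set of values, which sets the change of Ckb in pHes1_EPCs to 0. Leaving out a replicate or pairing was not possible because each group held 1 library. No paired analysis was possible because the labels give 1 library per group. Depth limits Aqp4 most.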
